A study of Ovis aries with 16 samples.

Results

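The comparison described here is ketamine given before hypoxia against hypoxia alone, in the frontal cerebral cortex of late-gestation fetal sheep. Arrays were placed in a group by their title and code: the 4 arrays titled as hypoxia with ketamine (hypoxia + ketamine, replicates 1 to 4) were set against the 5 titled as hypoxia without it (hypoxia control, replicates 1 to 5), which makes 9 of the 16 arrays of the series. Every hypoxia fetus had undergone 30 min of maternal ventilatory hypoxia, produced with nitrogen let into the trachea of the conscious, chronically catheterized ewe, and cortex was taken 24 h after its onset. The hypoxia + ketamine fetuses had received 3 mg/kg of ketamine through a fetal venous catheter before the stimulus, and the hypoxia control fetuses had not. The other 7 arrays, 3 normoxia control and 4 normoxia + ketamine, entered the same statistical fit and are given beside the hypoxia groups. Each array held RNA of 1 fetus, most pregnancies were twin, and the labels do not say which fetuses shared an ewe.

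The sources disagree on hypoxia control replicate 1, which the title and code give as hypoxia control but the other sample fields give as normoxia + ketamine. It was kept as a hypoxia control, and the main results are also given without it. The arrays lay on 2 slides, each scanned as a unit and each holding all 4 groups, with hypoxia control replicates 1 and 2 and hypoxia + ketamine replicates 1 and 2 on slide A and the rest of both groups on slide B. Between 70.71% and 75.93% of spots were well above background on the hypoxia control arrays and between 70.92% and 75.91% on the hypoxia + ketamine arrays, and any pair of the 9 arrays correlated between 0.9855 and 0.9935 over probes. Names were found for 1656 of the 15008 probes, standing for 1010 genes. None of the 20 neuronal and none of the 12 oligodendrocyte markers looked for was among the named genes, so the tissue label could not be checked against them. Of 12 astrocyte markers 6 had a probe, and GFAP, the intermediate filament protein of astrocytes, lay well above background on all 9 arrays.

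Ketamine is an anesthetic that blocks the open channel of the N-methyl-D-aspartate (NMDA) receptor, a glutamate receptor through which calcium enters neurons when oxygen is short. Lack of oxygen in the brain also sets off an inflammatory response, in which microglia, astrocytes and vessel walls make toll-like receptors, complement, chemokines, adhesion molecules and prostaglandins. Interferon-stimulated genes form a separate branch of that response. The question of the comparison was how far ketamine changes the expression that follows a hypoxic episode.

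In the fetuses given ketamine before hypoxia, the largest decrease of a called named gene was that of a serum amyloid A gene (-2.36). Other large decreases included the selectin SELP, the chemokine CXCL8, the cyclooxygenase PTGS2, the adhesion molecule ICAM1 and the complement component C3 (-0.74). Genes of other kinds, such as CCN1 (-0.83), TIMP3 (-0.78) and TXNIP (-0.76), fell by more than C3, and enrichment of inflammatory genes was not tested. Genes that rose did so by small amounts, and no probe that was called higher reached a 2-fold increase. A probe was called where limma's moderated test gave an unadjusted P under 0.05, with values as log2 signal after background correction and quantile normalization. Of 15008 probes, 1355 were called (9.03%), with 821 higher (5.47%) and 534 lower (3.56%) in hypoxia + ketamine. The median log2 fold change of the probes called lower was -0.33, against 0.19 for those called higher. Of the 35 probes called at least 2-fold lower, 6 belonged to 4 named genes (SELP, CXCL8, PTGS2 and a serum amyloid A gene) and 29 had no name. With 1 probe for each named gene, 65 genes were called lower (6.44%) and 36 higher (3.56%), and 25 genes were called with a log2 fold change below -0.5 against 1 above 0.5. No probe passed the Benjamini-Hochberg adjustment in limma, and the lowest adjusted P was 0.267, so a P given as limma's is unadjusted unless it is called adjusted.

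**Figure D1:**
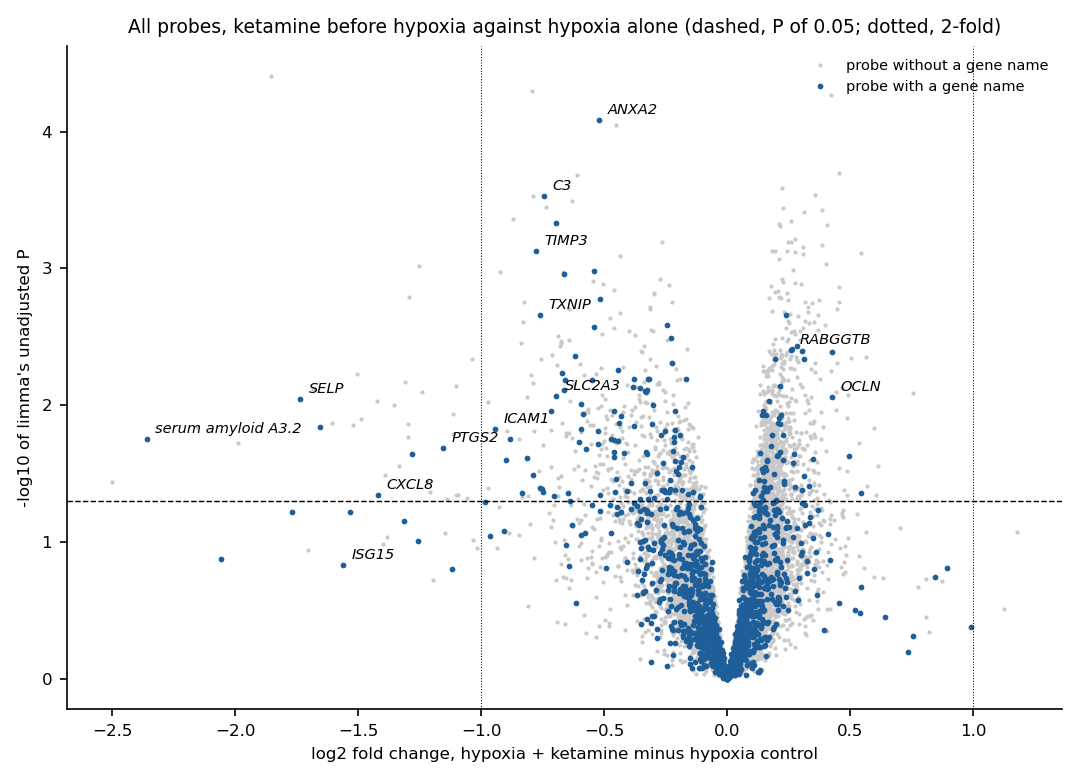
Each point is 1 of 15008 probes, with the log2 fold change (hypoxia + ketamine minus hypoxia control) on the horizontal axis and the negative log10 of limma's unadjusted P on the vertical axis. The 35 called probes past 2-fold lie on the left side, and the right side holds none.

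The split between increases and decreases depended on how the arrays were scaled. Of all called probes, 60.6% were higher here, 33.1% under cyclic loess and 45.4% when each array was scaled to its 75th percentile, a setting that moved the median of all probes to 0.21 from 0.02 on the log2 scale. The values of the 2 groups did not overlap for 262 probes that were higher (1.75%) and 85 that were lower (0.566%), and for 10 named genes higher (0.990%) and 9 lower (0.891%). Single genes were also compared between fetuses by a two-sided exact permutation test over all ways of dividing 9 arrays into 4 and 5, whose smallest possible P is 0.016. Groups that do not overlap always give this P. For genes or probes named because their groups did not overlap, it adds nothing to that choice.

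The complement component C3 and a complement receptor were lower after ketamine. C3, the protein on which the complement pathways converge, is shown with the 60-base sequences of its probes because both probes gave the same result.
C3, first probe: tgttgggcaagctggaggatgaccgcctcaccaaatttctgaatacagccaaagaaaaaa
C3, second probe: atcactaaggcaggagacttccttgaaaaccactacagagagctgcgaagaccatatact
On the first probe the log2 signal of C3 was 13.86, 13.34, 13.60, 13.04 and 13.60 in hypoxia control replicates 1 to 5 and 12.95, 12.62, 12.61 and 12.80 in the hypoxia + ketamine fetuses. Every ketamine fetus lay below every hypoxia control fetus. C3 fell by 0.74 on the log2 scale (SE 0.16, P = 0.000295, exact permutation P = 0.016), which is 1.68-fold, and the second probe gave -0.70 (P = 0.000463). The difference was -0.82 on slide A, -0.71 on slide B and -0.65 without hypoxia control replicate 1, and no array left out or alternative processing ended the call. The normoxia control fetuses averaged 13.06 and the normoxia + ketamine fetuses 13.52, so the C3 level of the ketamine groups differed in opposite directions from their controls. C5AR1, the receptor of the complement fragment C5a, ran from 9.27 to 10.09 in hypoxia control and from 8.88 to 9.66 in hypoxia + ketamine, a change of -0.41 (P = 0.0427, exact permutation P = 0.143) with overlapping groups. Without hypoxia control replicate 1, 2 or 3, among other arrays, this C5AR1 probe was no longer called, while a second one gave -0.46 (P = 0.011, exact permutation P = 0.095) and kept its call with each array left out in turn, with -0.40 without hypoxia control replicate 1. Of the 9 complement and coagulation genes on the array, 2 were called lower (22.2%, against 6.44% of all named genes) and 0 higher. Without hypoxia control replicate 1, 1 was called lower. The list's median log2 fold change was -0.16, beside 0.00 for all 1010 named genes.

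**Figure D2:**
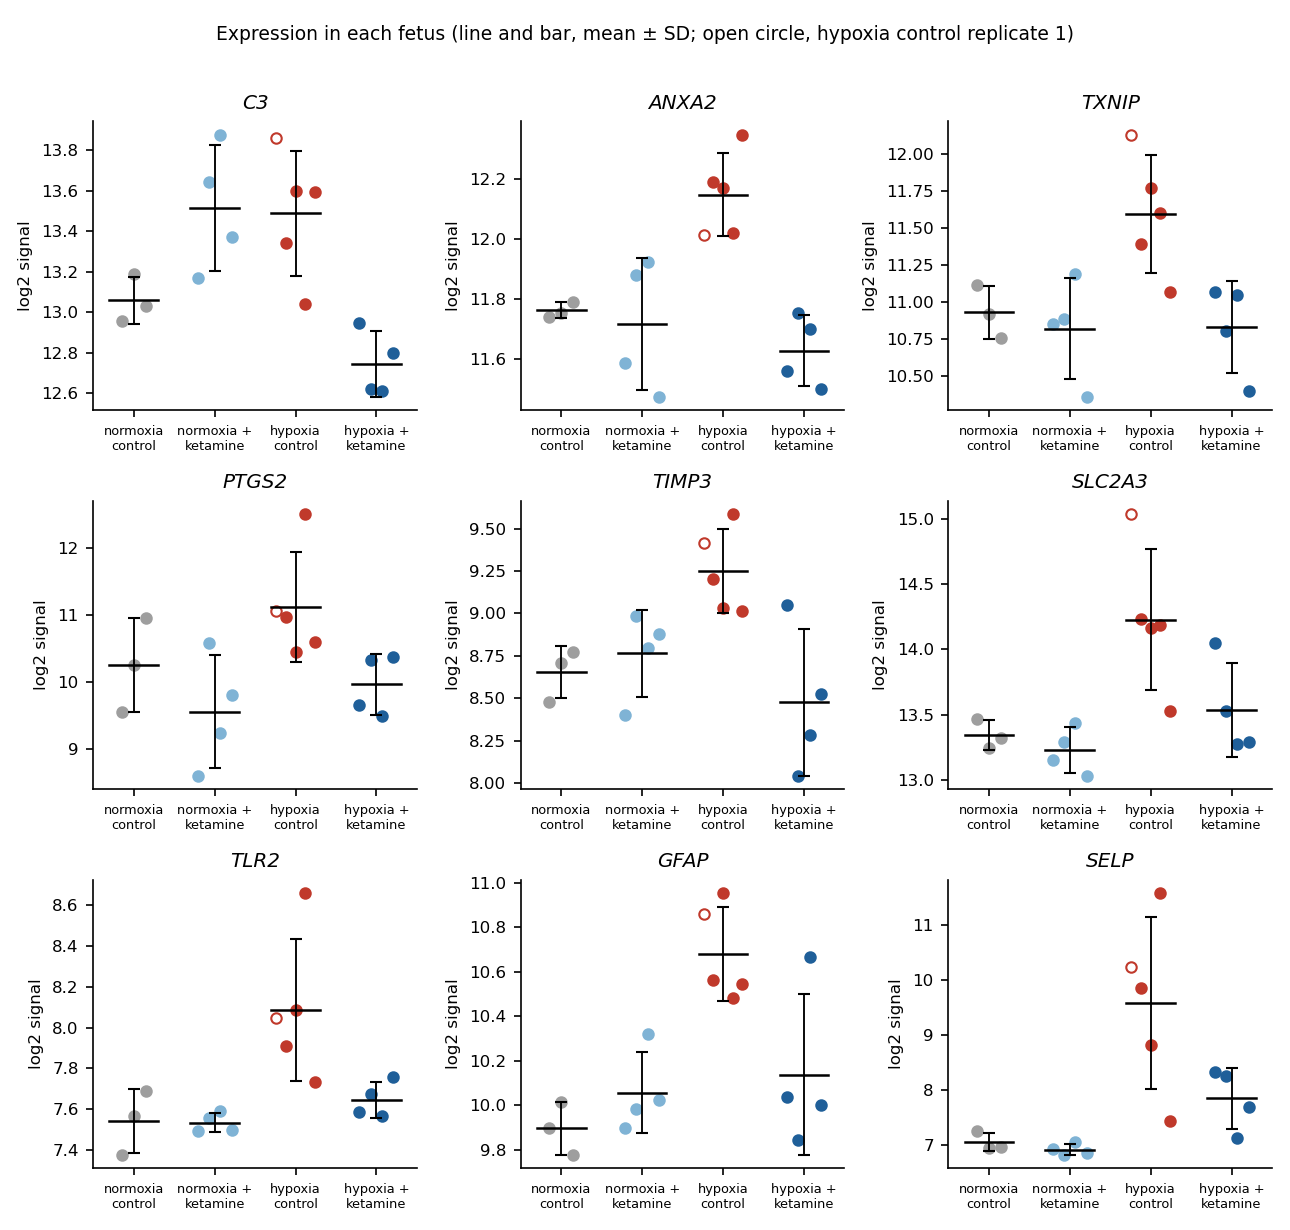
Each panel plots the log2 signal of 1 gene in each fetus for the 4 groups, with the mean as a line and the SD as a bar; the open circle is hypoxia control replicate 1. C3, ANXA2 and PTGS2 show no overlap between hypoxia control and hypoxia + ketamine, while SELP ranges from 7.43 to 11.59 within hypoxia control.

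Some receptors and regulators of the toll-like receptor and NF-kB pathway were also lower. Toll-like receptors recognize microbial and damage-derived molecules, and the 60-base probes of TLR2 are shown because both were called.
TLR2, first probe: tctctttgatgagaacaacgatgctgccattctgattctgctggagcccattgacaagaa
TLR2, second probe: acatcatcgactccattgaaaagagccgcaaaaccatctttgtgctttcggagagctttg
On the first of them, TLR2 measured 8.05, 7.91, 8.09, 8.66 and 7.73 in hypoxia control, against 7.59, 7.67, 7.57 and 7.76 in hypoxia + ketamine. Only hypoxia control replicate 5 and hypoxia + ketamine replicate 4 crossed, by a small margin. TLR2 fell by 0.44 (SE 0.14, P = 0.0055, exact permutation P = 0.032) and by 0.54 on the second probe, with -0.35 on slide A and -0.50 on slide B, and its mean of 7.65 in hypoxia + ketamine stood near the 7.54 of normoxia control. TLR4, the endotoxin receptor, changed by -0.27 (P = 0.0164, exact permutation P = 0.079), with 7.19 to 7.68 in hypoxia control and 7.04 to 7.33 in hypoxia + ketamine, and lost its call without hypoxia + ketamine replicate 4. CD14, the coreceptor of TLR4, measured 8.75, 9.60, 9.23, 9.18 and 8.03 in the controls and 8.66, 8.39, 8.24 and 8.13 with ketamine. Hypoxia control replicate 5 was the lowest of all 9 fetuses, and the other 4 controls lay above all ketamine fetuses. CD14 fell by 0.60 (SE 0.23, P = 0.0185, exact permutation P = 0.127), a call that ended without hypoxia control replicate 2 or hypoxia + ketamine replicate 4. A second CD14 probe gave -0.60 (P = 0.0149, exact permutation P = 0.127) and kept its call with each array left out in turn.

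NFKBIA, the inhibitor that NF-kB itself induces, measured 12.75, 11.57, 11.95, 12.72 and 10.86 in hypoxia control, against 11.80, 11.07, 10.66 and 11.09 in hypoxia + ketamine. The highest controls were replicates 1 and 4, and the groups overlapped. NFKBIA fell by 0.81 (SE 0.32, P = 0.0243, exact permutation P = 0.159), and was not called without hypoxia control replicate 1 (-0.62, P = 0.0678), without hypoxia control replicate 4 or without hypoxia + ketamine replicate 3. Of the 17 genes of the pathway on the array, 4 were called lower (23.5%, against 6.44% of all named genes) and 0 higher. A negative value was found in 13 (76.5%, against 49.8%), with a median of -0.08. Without hypoxia control replicate 1 or 4, 3 were called lower. Genes that were not called included MYD88, the adaptor of most toll-like receptors, at -0.30, NFKB1, a subunit of NF-kB, at 0.04, and the kinase IKBKB, at -0.02 on its brighter probe. For MYD88, hypoxia control replicate 4 stood apart at 8.29, against 7.22 to 7.45 in the other controls. The dimmer IKBKB probe measured 7.12, 7.31, 7.28, 7.39 and 7.95 against 7.06, 7.06, 7.02 and 6.97 and was called at -0.38 (P = 0.00738, exact permutation P = 0.016), so that the IKBKB probes disagreed.

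Among cytokines and chemokines, CXCL8 was high in a few control fetuses. CXCL8, which attracts neutrophils, measured 10.68, 7.85, 7.69, 11.06 and 7.27 in hypoxia control, against 7.54, 8.00, 7.31 and 7.11 in hypoxia + ketamine. The difference of -1.42 (SE 0.65, P = 0.0457, exact permutation P = 0.206) lay in hypoxia control replicates 1 and 4, and the other 3 controls fell within the range of the ketamine fetuses. Leaving out any of 12 arrays ended the call, and without hypoxia control replicate 1 the value was -0.98, and -0.88 without replicate 4. A second CXCL8 probe measured 10.05, 7.29, 7.47, 10.37 and 6.87 against 6.69, 7.18, 6.54 and 6.60, and on it hypoxia control replicate 5 alone lay within the range of the ketamine fetuses. That probe was well above background on 4 of 5 hypoxia control and 1 of 4 hypoxia + ketamine arrays, gave -1.65 (P = 0.0145, exact permutation P = 0.032) and was called with each array left out in turn, with -1.24 without hypoxia control replicate 1 and -1.17 without replicate 4. TGFB2, a growth factor of the transforming growth factor family, changed by -0.71 (P = 0.0464, exact permutation P = 0.143), with 11.18 to 12.63 in hypoxia control and 10.45 to 11.57 in hypoxia + ketamine, a call that ended without any of 9 arrays. The receptor genes IL13RA1 and TNFRSF1A changed by -0.33 and -0.14, and their calls ended without any of 3 and 4 arrays.

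Among the cytokines that define acute inflammation, IL1B, IL6 and TNF were not called. IL1B measured 9.28, 8.16, 7.94, 9.31 and 8.07 in hypoxia control, against 7.76, 8.36, 8.17 and 8.03 in hypoxia + ketamine, with a 95% confidence interval of the IL1B difference from -1.02 to 0.08. IL6 gave -0.41 (exact permutation P = 0.444) and TNF -0.38 (exact permutation P = 0.159). For IL1B and IL6, as for CXCL8, hypoxia control replicates 1 and 4 were the highest fetuses. In all, 4 of 33 cytokine, chemokine and receptor genes were called lower (12.1%, against 6.44% of all named genes) and 0 higher, with 23 negative values and a median of -0.09. Without hypoxia control replicate 1 the count called lower was 6, and without replicate 4 it was 2.

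PTGS2 encodes cyclooxygenase-2, the inducible enzyme of prostaglandin synthesis. Its log2 signal was 11.06, 10.96, 10.45, 12.51 and 10.60 in hypoxia control, against 9.65, 10.32, 9.49 and 10.37 in hypoxia + ketamine. No ketamine fetus reached the lowest control. PTGS2 fell by 1.16 (SE 0.45, P = 0.0205, exact permutation P = 0.016), with -1.02 on slide A, -1.25 on slide B and -1.17 without hypoxia control replicate 1. The call ended without hypoxia control replicate 4 or without hypoxia + ketamine replicate 1 or 3. A second, dimmer PTGS2 probe, well above background on 2 of 4 hypoxia + ketamine arrays, gave -0.21 and was not called. In normoxia, PTGS2 averaged 10.25 without and 9.55 with ketamine. The other 7 genes of prostaglandin synthesis and signaling on the array lay between -0.02 and 0.20 and were not called, and the list of 8 had a median of 0.10. Without hypoxia control replicate 1 that median was 0.03.

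Adhesion molecules of the vessel wall held the largest decrease of a called gene in the lists. SELP, or P-selectin, which endothelium and platelets use to capture leukocytes, measured 10.24, 9.85, 8.81, 11.59 and 7.43 in hypoxia control, against 8.32, 8.25, 7.13 and 7.68 in hypoxia + ketamine. Hypoxia control replicate 5 lay among the ketamine fetuses and the other 4 controls above them. SELP fell by 1.74 (SE 0.58, P = 0.00904, exact permutation P = 0.079), or 3.33-fold, with -1.76 on slide A, -1.87 on slide B and -1.57 without hypoxia control replicate 1, and its mean in normoxia control was 7.05. The SELP call ended when replicate 1 was moved to normoxia + ketamine. ICAM1, an endothelial ligand of leukocyte integrins, measured 8.02, 8.33, 7.71, 9.63 and 7.18 in hypoxia control, against 7.15, 7.71, 7.00 and 7.07 in hypoxia + ketamine, a difference of -0.94 (P = 0.0149, exact permutation P = 0.048) that was -0.58 without hypoxia control replicate 4, its highest fetus. The integrin ITGA4, near background, changed by -0.21, a call lost without any of 4 arrays. Of the 11 endothelial markers on the array 1 (SELP) was called lower (9.09%, against 6.44% of all named genes) and 1 (OCLN) higher, with a median of -0.02. The other 9 lay between -0.34 (FLT1, a receptor of vascular endothelial growth factor) and 0.08 (NOS3, the endothelial nitric oxide synthase), and of these SELE and TEK were not well above background on any hypoxia array. Of 12 adhesion genes 3 were called lower (25%, against 6.44% of all named genes) and 0 higher, 6 had negative values and the median was -0.02.

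ANXA2 had the lowest P of the named genes. Annexin A2 is a calcium-dependent membrane-binding protein that also gathers plasmin at the cell surface, and its probe is shown because no other named gene reached this P.
ANXA2: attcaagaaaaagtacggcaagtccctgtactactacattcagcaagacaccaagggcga
ANXA2 measured 12.01, 12.19, 12.17, 12.02 and 12.35 in hypoxia control, against 11.56, 11.75, 11.70 and 11.50 in hypoxia + ketamine. The groups did not overlap, and the normoxia means were 11.76 without and 11.72 with ketamine. ANXA2 fell by 0.52 (SE 0.10, P = 8.28e-05, adjusted P = 0.267, exact permutation P = 0.016), or 1.43-fold, with -0.44 on slide A, -0.58 on slide B and -0.55 without hypoxia control replicate 1. As for C3, no alternative setting or array left out ended this call. The other 7 annexin, S100 and acute-phase genes of that list ranged from -0.22 to 0.14 and were not called.

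Some extracellular matrix genes were lower as well. TIMP3, an inhibitor of matrix metalloproteinases, measured 9.42, 9.20, 9.03, 9.59 and 9.01 in hypoxia control, against 9.05, 8.04, 8.28 and 8.52 in hypoxia + ketamine. Replicate 1 of the ketamine group lay within the control range and the other 3 below it. TIMP3 fell by 0.78 (SE 0.18, P = 0.000745, exact permutation P = 0.048), with -0.76 on slide A and -0.81 on slide B. TIMP1, a second inhibitor of this family, changed by -0.38 (P = 0.0142, exact permutation P = 0.063) and lost its call without hypoxia + ketamine replicate 4. DCN, the proteoglycan decorin that binds collagen fibrils, measured 12.19, 11.99, 11.82, 12.38 and 12.74 in hypoxia control, against 11.86, 11.50, 11.62 and 11.29 in hypoxia + ketamine, a difference of -0.66 (P = 0.00658, exact permutation P = 0.032). On a second DCN probe the groups did not overlap (-0.47, P = 0.0178, exact permutation P = 0.016). MMP13, a collagenase, was called higher at 0.35 but was not well above background on any hypoxia control array and was so on 1 of 4 hypoxia + ketamine arrays. Hypoxia + ketamine replicate 4 measured 7.70, against 6.89 to 6.95 in the other ketamine fetuses and a mean of 6.76 in hypoxia control. The MMP13 call ended without that array or hypoxia control replicate 4.

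FBLN1, or fibulin-1, a matrix glycoprotein, had a pair of probes that share a run of 56 bases, printed in capitals, and are offset by 4.
FBLN1, first probe: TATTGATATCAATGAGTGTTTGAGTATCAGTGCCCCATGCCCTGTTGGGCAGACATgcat
FBLN1, second probe: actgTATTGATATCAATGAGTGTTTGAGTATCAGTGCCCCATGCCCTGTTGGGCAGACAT
They are shown because near-identical probes give a measure of the assay's own error. The first gave 8.09, 8.21, 8.45, 8.10 and 8.76 in hypoxia control, against 7.63, 7.95, 7.91 and 7.73 in hypoxia + ketamine, and the second 8.02, 8.23, 8.40, 7.97 and 8.72 and then 7.76, 8.15, 7.95 and 7.89. Groups were separate on the first FBLN1 probe (-0.52, P = 0.00168, exact permutation P = 0.016) and overlapped on the second (-0.33, P = 0.0228, exact permutation P = 0.079), where the call ended without any of 3 arrays. Of 26 matrix genes 4 were called lower (15.4%, against 6.44% of all named genes) and 1 higher. Negative values were found in 19 (73.1%, against 49.8%), and the median was -0.09.

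Cell type markers were counted in the same way, beside 6.44% of all named genes called lower and 3.56% higher. GFAP measured 10.86, 10.56, 10.95, 10.48 and 10.55 in hypoxia control, against 10.04, 9.84, 10.67 and 10.00 in hypoxia + ketamine. Replicate 3 of the ketamine group lay among the controls and the other 3 below all of them. GFAP fell by 0.54 (SE 0.15, P = 0.00268, exact permutation P = 0.063), with -0.77 on slide A and -0.33 on slide B. Of 6 astrocyte markers it alone was called, 5 had negative values and the median was -0.17. Of 11 microglia and macrophage markers on the array 10 had negative values (90.9%, against 49.8% of all named genes), and the median was -0.27. Of these markers 4 were called lower (CD14, TLR2, TLR4 and the immunoglobulin receptor FCGR1A, at -0.46) and 0 higher. Those 4 were 36.4% of the list, against 6.44% of all named genes. The FCGR1A call ended without any of 4 arrays, and the count was 6 without hypoxia control replicate 1 and 3 without replicate 4. The mean log2 signal of that list ran from 7.99 to 8.58 in hypoxia control, from 7.85 to 8.24 in hypoxia + ketamine and from 7.78 to 7.86 in normoxia control. In bulk tissue, fewer cells of a type and less RNA per cell cannot be told apart.

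Of the 6 markers of meninges and fibroblasts on the array, 5 (DCN, FBLN1, COL1A2, COL3A1 and BGN) also stand in the matrix list, so the lists are not independent, and the sixth, the prostaglandin D synthase PTGDS, stood at 0.01. DCN and FBLN1 were called lower (33.3%, against 6.44% of all named genes), 5 values were negative and the median was -0.30. The mean signal ran from 9.95 to 10.65 in hypoxia control and from 9.85 to 9.95 in hypoxia + ketamine. The part of such cells in the matrix result was not tested. Of 5 lymphocyte markers CD5, at -0.46 (P = 0.0432, exact permutation P = 0.159), was called, a call that ended without any of 9 arrays and under the authors' values. A second CD5 probe was called at -0.53 (exact permutation P = 0.095) and lost the call without any of 3 arrays. The T cell genes CD3D, CD3E, CD4 and LCK lay between -0.10 and 0.02. Neither the 4 neutrophil nor the 3 red blood cell markers were called, with medians of -0.10 and -0.31. Without hypoxia control replicate 1, 1 gene of each list was called lower and the medians were -0.21 and -0.60. Without hypoxia control replicate 4 the red blood cell median was -0.165. Of the 4 choroid plexus markers 3 had negative values, none was called in limma's test at the unadjusted threshold and the median was -0.34, with 0.35 on slide A and -0.55 on slide B. Without hypoxia control replicate 1, 1 of them was called lower and the median was -0.37. IGF2, a fetal growth factor, ran from 10.12 to 14.32 in hypoxia control and from 9.85 to 11.98 in hypoxia + ketamine, with 0.60 on slide A and -3.20 on slide B.

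**Figure D3:**
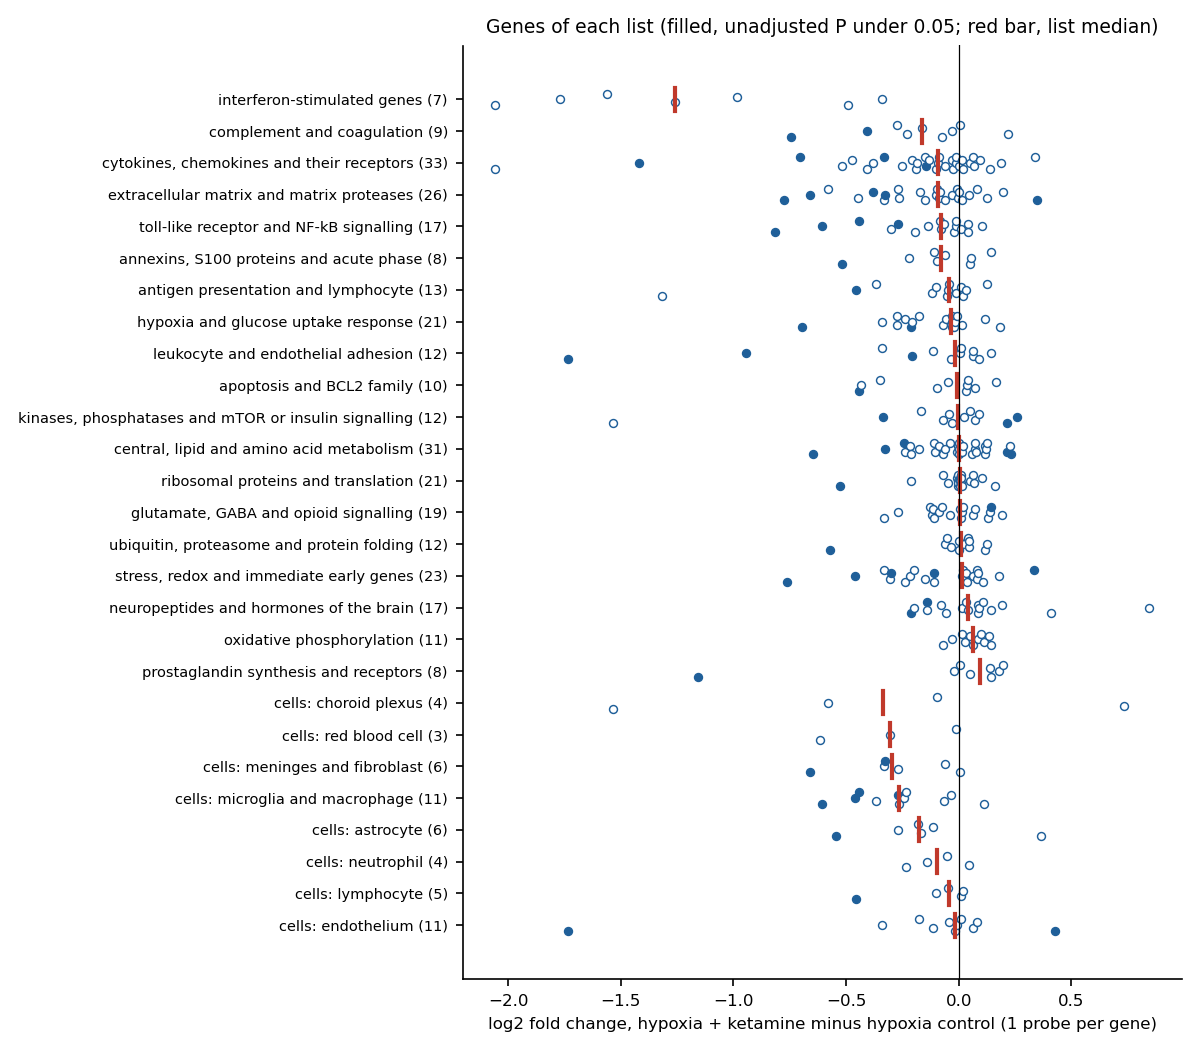
Each point is 1 gene of a list, placed by its log2 fold change (hypoxia + ketamine minus hypoxia control); filled points were called, the red bar is the list's median and the number of genes on the array stands in brackets. Filled points lie mostly left of 0 in the inflammatory, matrix and cell type lists, and 11 of the 21 ribosomal and translation genes were saturated on at least 1 hypoxia array.

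Genes of glucose handling and cell stress included decreases on both of their probes. TXNIP, the thioredoxin-interacting protein that restrains glucose uptake, measured 12.13, 11.40, 11.77, 11.60 and 11.07 in hypoxia control, against 11.07, 10.81, 11.05 and 10.40 in hypoxia + ketamine. Only hypoxia control replicate 5 reached the ketamine range. TXNIP fell by 0.76 (SE 0.21, P = 0.00219, exact permutation P = 0.032) and by 0.66 on its second probe (P = 0.0011), on which the groups did not overlap. SLC2A3, the neuronal glucose transporter GLUT3, measured 15.04, 14.23, 14.16, 14.18 and 13.53 in hypoxia control, against 14.05, 13.53, 13.27 and 13.29 in hypoxia + ketamine. Hypoxia control replicate 1 was the highest fetus. SLC2A3 fell by 0.69 (SE 0.23, P = 0.00855, exact permutation P = 0.048), by 0.49 without that replicate, and was not called when it was moved to normoxia + ketamine. Of 21 hypoxia and glucose uptake genes 2 were called lower (9.52%, against 6.44% of all named genes) and 0 higher. The hypoxia-responsive genes VEGFA, SLC2A1 and LDHA, at -0.24, -0.18 and -0.06, were not called, 18 of the 21 values were negative and the median was -0.03. Without hypoxia control replicate 4 the count of genes called lower was 4. The second called gene, SLC2A4, was not well above background on any hypoxia + ketamine array.

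Among stress genes, the heat shock protein HSPA1A changed by -0.46 (exact permutation P = 0.095) and the endoplasmic reticulum chaperone HSPA5 by -0.30 (exact permutation P = 0.032), both called, with the HSPA1A call lost without hypoxia + ketamine replicate 1 or 2. HSPA5 measured 12.18 to 12.42 in hypoxia control and 11.90 to 12.21 in hypoxia + ketamine. HSD11B1, the enzyme that regenerates cortisol from cortisone, was called higher at 0.33 (exact permutation P = 0.111), a call that ended without any of 5 arrays, and its second probe gave 0.18 and was not called. The immediate early genes FOS, JUNB and EGR1 stood at -0.24, -0.22 and 0.18 and were not called. Of 23 stress, redox and immediate early genes 4 were called lower (17.4%, against 6.44% of all named genes) and 1 higher, with a median of 0.02. Without hypoxia control replicate 4 the median was -0.06 and 3 were called lower. MCL1, an antiapoptotic protein of the BCL2 family, fell by 0.44 (P = 0.0134, exact permutation P = 0.063), with 8.54 to 9.57 in hypoxia control and 8.44 to 8.65 in hypoxia + ketamine, and the MCL1 change was -0.29 without hypoxia control replicate 4. A second MCL1 probe was not well above background on any hypoxia array. BCL2, BAX, BAD and AKT1, which the study also followed, ranged from -0.35 to 0.07 and were not called on their brightest probe, while a second BCL2 probe was called at -0.35 (exact permutation P = 0.111) and lost the call without any of 8 arrays.

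Translation, protein turnover and metabolism contributed single genes. The initiation factors EIF3A and EIF4G1 were called lower at -0.53 and -0.34 (exact permutation P = 0.095 and 0.048), and the second probe of EIF3A was called as well. The EIF3A call ended without hypoxia + ketamine replicate 2. Of the 21 ribosomal and translation genes, 11 were saturated on at least 1 hypoxia array and 9 of them on all 9, so a change in these could not be seen. The 10 never saturated ranged from EIF3A to RPL13A (0.16), and EIF3A was the one called. PSME2, a subunit of the interferon-inducible proteasome activator, changed by -0.57 (P = 0.021, exact permutation P = 0.095), highest in hypoxia control replicates 2 (13.67) and 4 (13.72), and lost its call without either of these or hypoxia + ketamine replicate 3 or 4. In metabolism, the vitamin B6 kinase PDXK (-0.65), the fatty acid desaturase SCD (-0.33) and the lipid regulator PPARG (-0.24) were called lower, and BCAT1, which transaminates branched-chain amino acids (0.21), and the malic enzyme ME1 (0.23) higher. The second BCAT1 probe gave 0.20 and was not called, and the calls of PDXK and ME1 ended without any of 12 and 6 arrays. ACSS2, an acetyl-coenzyme A synthetase, measured 7.59 to 7.88 in hypoxia control and 7.41 to 7.56 in hypoxia + ketamine without overlap, a change of -0.23 (P = 0.00322, exact permutation P = 0.016) that was the same on its second probe. None of the 11 oxidative phosphorylation genes was called in limma's test at the unadjusted threshold, and 1 of them, ATP5MC1, was saturated on 7 of 9 hypoxia arrays. Of the glutamate, GABA and opioid genes, 0 of 19 were called lower and 1 higher, against 6.44% and 3.56% of all named genes. GRIN1, the obligatory subunit of the NMDA receptor that ketamine blocks, measured 9.15 to 10.07 in hypoxia control and 9.07 to 9.54 in hypoxia + ketamine and was not called (-0.33, P = 0.0582, exact permutation P = 0.111), but it was called with slide as a block (-0.30, P = 0.0416), with -0.09 on slide A and -0.48 on slide B.

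The named genes that rose without overlap between the groups did so by at most 1.22-fold. RABGGTB, a subunit of the enzyme that attaches lipid anchors to Rab proteins, measured 11.56, 11.81, 11.84, 11.68 and 11.56 in hypoxia control, against 11.90, 12.06, 11.97 and 11.87 in hypoxia + ketamine. RABGGTB rose by 0.26 (SE 0.08, P = 0.00395, exact permutation P = 0.016). For the genes named here for not overlapping, the permutation P was fixed by that choice. CHCHD3, a protein of the mitochondrial inner membrane, measured 13.22 to 13.28 in hypoxia control and 13.40 to 13.50 in hypoxia + ketamine, a rise of 0.19 (P = 0.00462, exact permutation P = 0.016) with 0.20 on slide A and 0.19 on slide B. Increases without overlap were also seen for SLAN (0.29), PPP2CA, the catalytic subunit of protein phosphatase 2A (0.21), TBP, the TATA-binding protein (0.14), and a gene the array names TRAIN A (0.10), whose call ended without any of 7 arrays. The dimmer probe of SLC17A5, a sialic acid transporter, rose by 0.21 without overlap, and the brighter one by 0.15 with overlapping groups, a call that was lost without any of 8 arrays. For AQP2 (0.16) and NOX5 (0.16) the other probe of the gene gave -0.01 and 0.06 and was not called. OCLN, occludin of endothelial tight junctions, had the largest increase of a called gene in the lists, with 7.90, 7.56, 7.89, 7.28 and 8.05 in hypoxia control, against 8.49, 7.94, 8.22 and 8.01 in hypoxia + ketamine. The groups overlapped at hypoxia control replicate 5, and OCLN rose by 0.43 (SE 0.14, P = 0.00872, exact permutation P = 0.063). A decrease without overlap was also measured on the dimmer of the NUS1 probes (-0.19, exact permutation P = 0.016), while the brighter one gave -0.10.

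Interferon-stimulated genes had lower means in all 7 members on the array, yet none was called in limma's test. CXCL10, an interferon-induced chemokine, measured 11.36, 14.79, 9.84, 15.93 and 12.11 in hypoxia control, against 7.46, 13.55, 8.99 and 12.99 in hypoxia + ketamine. Both groups thus held high and low fetuses, and the difference of -2.06 had an SE of 1.30 (exact permutation P = 0.302). The CXCL10 difference was -2.42 without hypoxia control replicate 1 and -1.28 without replicate 4. MX2 and MX1, antiviral GTPases, gave -1.77 and -1.26 (exact permutation P = 0.238 and 0.206). The transcription factor IRF1 gave -0.98 and the immunoproteasome subunit PSMB8 -0.49. Hypoxia control replicates 2 and 4 were the highest hypoxia fetuses for CXCL10, MX2, ISG15, MX1, IRF1 and PSMB8. The list's median was -1.26. Without hypoxia control replicate 1, whose labels conflict, the median was -1.74 and 5 of the 7 genes were called lower, and without hypoxia control replicate 4 it was -0.65 with 0 called.

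**Figure D4:**
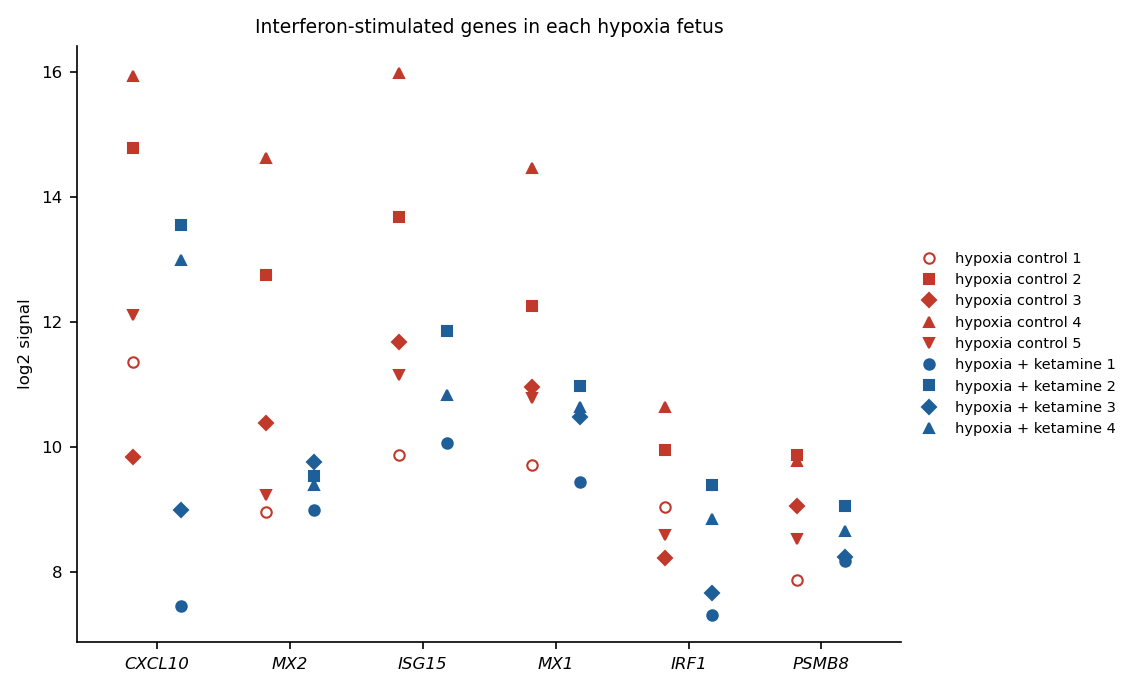
The log2 signal of 6 interferon-stimulated genes is plotted for each hypoxia fetus, with hypoxia control in red, hypoxia + ketamine in blue and a symbol for each replicate; the open circle is hypoxia control replicate 1. Hypoxia control replicates 2 and 4 stand highest for each of them, and ISG15 has no value for hypoxia + ketamine replicate 3.

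ISG15, a ubiquitin-like protein conjugated to other proteins after interferon, needs a separate account, and its probe is shown because its result rests on 1 spot.
ISG15: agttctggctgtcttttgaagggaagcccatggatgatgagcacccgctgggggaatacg
It measured 9.88, 13.68, 11.69, 15.99 and 11.16 in hypoxia control, against 10.07, 11.85 and 10.83 in hypoxia + ketamine replicates 1, 2 and 4. On the array of replicate 3 the scanner read a local background of 40348 around this spot, against 2117 for the spot and 19 for the median spot of the array, and the spot was left out, as all spots flagged for an uneven background were. ISG15 then gave -1.56 with an SE of 1.02 and was not called. With such spots kept it would have been called at -2.81, and this choice was made after the data were seen. The ISG15 signal of hypoxia control replicate 4 was saturated, so its value there is a lower bound.

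Further genes outside the lists, some inflammatory and some of other kinds, were picked after their values were seen. The gene LOC100135684, described by the array as serum amyloid A3.2, an acute-phase protein, measured 6.59, 12.95, 11.06, 8.83 and 9.58 in hypoxia control, against 7.93, 8.06, 6.92 and 6.86 in hypoxia + ketamine. Replicate 1 of hypoxia control was the lowest of the 9 fetuses, and the other 4 controls lay above all ketamine fetuses. The serum amyloid gene fell by 2.36 (SE 0.88, P = 0.0176, exact permutation P = 0.095), with -3.16 without hypoxia control replicate 1. Without replicate 2, the highest control at 12.95, its fall would be smaller. PTX3, a pentraxin of the acute phase, RTP4, an interferon-inducible protein, and CCN1, a matricellular protein, changed by -0.76, -0.79 and -0.83, with exact permutation P of 0.159, 0.095 and 0.159. All 3 of these calls ended without hypoxia control replicate 4, when RTP4 gave -0.45 and CCN1 -0.50. Those of CCN1 and PTX3 also ended without hypoxia control replicate 1 (CCN1 -0.64), and that of CCN1 without any of 12 arrays. The second PTX3 probe gave -0.59 and was not called. VIM, the filament protein vimentin, saturated on 1 hypoxia control array, changed by -0.42, and the growth factors FGF2 and BMP6 by -0.75 and -0.59, with exact permutation P of 0.111, 0.143 and 0.032. The FGF2 call ended without any of 6 arrays, hypoxia control replicate 1 among them, and that of VIM without any of 4. BMP6 gave -0.11 on slide A and -0.96 on slide B, and FGF2 -0.48 and -1.03.

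The probes with the largest decreases without overlap carried no gene name. Probe A_70_P057221 measured 13.36, 12.44, 12.81, 12.63 and 11.09 in hypoxia control, against 10.83, 10.22, 10.71 and 10.69 in hypoxia + ketamine, a change of -1.85 (SE 0.32, adjusted P = 0.267). Probe A_70_P065851 changed by -1.25 (SE 0.30). The normoxia means of these probes were 10.65 and 8.48. The increases of A_70_P050456 and A_70_P007501 were 0.47 and 0.45.

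Whether ketamine changed expression differently in hypoxia and in normoxia was tested with the interaction term of the same fit. Of 15008 probes 955 had an interaction at an unadjusted P under 0.05 (6.36%), and 0 passed adjustment. C3, TIMP3, GFAP, ANXA2 and RABGGTB were among those at the unadjusted threshold, each with an adjusted P = 0.733. In C3 the ketamine effect was -0.74 in hypoxia and 0.46 in normoxia, a difference of -1.20 (SE 0.24). TIMP3 differed by -0.89 (SE 0.28), from -0.78 in hypoxia to 0.11 in normoxia, and GFAP by -0.70 (SE 0.23), from -0.54 to 0.16. In ANXA2 the effect in normoxia was -0.05 and the difference -0.47 (SE 0.15). The increase of RABGGTB in hypoxia stood against -0.11 in normoxia, a difference of 0.37 (SE 0.12). For PTGS2, SELP, TXNIP, SLC2A3, TLR2, ICAM1 and NFKBIA the interaction did not pass the threshold, which does not show that the effects were alike. GRIN1, not called in hypoxia, had an interaction of -0.54 (SE 0.24) under the unadjusted threshold. In PTGS2 the normoxia effect was -0.70, in the same direction as in hypoxia.

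**Figure D5:**
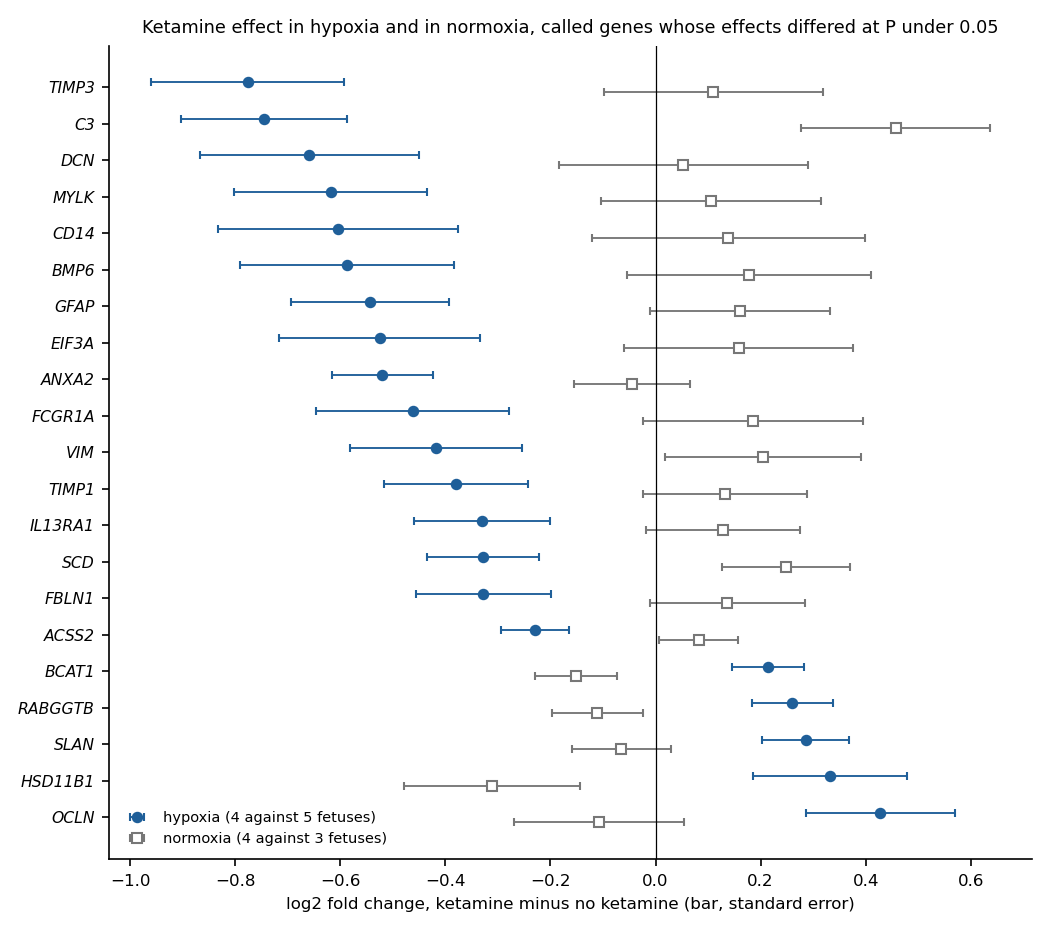
The log2 fold change of ketamine against no ketamine is plotted for 21 called genes, in hypoxia (filled circles, 4 against 5 fetuses) and in normoxia (open squares, 4 against 3 fetuses), with standard errors as bars. The genes were chosen because the interaction passed the unadjusted threshold, and C3 has the widest gap, from -0.74 to 0.46.

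Of the 19 pathway lists, 15 had more genes called lower than higher, as had all 1010 named genes (65 against 36), and 11 of the 19 had a negative median. These lists were written with earlier results of these data known, and the same gene can stand in several, so the counts describe the lists and are no evidence for a direction. The fit with the 2 hypoxia groups alone kept the calls of 40 of the 66 genes or probes followed. Within a slide, where the fit had 8 arrays, 23 of the 66 calls were kept on slide A and 23 on slide B. Decreases on slides A and B were -0.42 and -0.86 for DCN, -0.37 and -0.85 for TGFB2, -0.31 and -0.83 for PSME2, -0.22 and -0.53 for VIM and -0.17 and -0.48 for IL13RA1.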

How the data were processed

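Cyanine 3-labelled cortical RNA was hybridized to 1-color Agilent sheep arrays. The deposited scanner files give spot intensity as read by Feature Extraction 10.1.1.1, per the file headers, with no normalization between arrays. The authors' processed table, in log2 units with background correction and quantile normalization already applied, was used as an alternative. Their processing notes name limma and R 2.15.1.

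Mean intensities underwent normexp correction against the median local background (offset 50) and quantile normalization in R 4.3.3 with limma 3.58.1. The 536 control spots of each array were left out. Over the 16 arrays together, 292 other spots flagged as outliers were left out after normalization, of which 82 were flagged for an uneven local background. Leaving out the latter was chosen after the data were seen. Replicate spots were averaged, leaving 15008 probes, and 199 lacked a value on some array. Of the probes, 1656 were named, 727 by accession, 531 by a current or older symbol, 125 by gene ID, 72 by an older name matched by hand and 201 by the files' own name, through the sheep RefSeq gene table. The brightest probe over the 16 arrays stood for a gene.

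limma fitted the 4 groups with a common spread, and probes were called at an unadjusted P under 0.05, the threshold of the study's methods. The fit was also run on simulated data, whose outcome is not reported here and supports no result. The text names the largest called changes without overlap (up to 12 in each direction; 9 were lower and 9 higher), called genes of the lists (45) and genes the study followed (18 of 25 on the array), and says where a gene was picked afterwards. No filter on dim probes was applied, and the few arrays limit the precision. The groups, gene lists (19 of pathways, 11 of cell types) and tests were chosen with earlier results of these data known. Promoter sequences were not used here, and some genes counted in the lists are not reported singly. Alternatives were other background corrections and scalings, the authors' values, a filter on dim probes, slide or replicate number as a block, other samples in the fit, array weights, a robust prior and each array left out.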

Additional observations from a re-analysis of the deposited data

Results flagged for a closer look

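For 22 of the 86 genes or probes examined, the ketamine effect in hypoxia differed from that in normoxia at an unadjusted P under 0.05 in limma's interaction test, and none passed adjustment over the 15008 probes. As the effect in hypoxia minus that in normoxia, on the log2 scale, the difference was -1.20 for C3, -0.89 for TIMP3, -0.76 for BMP6, -0.74 for CD14, -0.72 for MYLK, -0.71 for DCN, -0.70 for GFAP, -0.68 for EIF3A, -0.65 for FCGR1A, -0.62 for VIM, -0.58 for SCD, -0.54 for GRIN1, -0.51 for TIMP1, -0.47 for ANXA2, -0.46 for FBLN1, -0.46 for IL13RA1 and -0.31 for ACSS2. It was above 0 for HSD11B1 (0.64), OCLN (0.54), BCAT1 (0.37), RABGGTB (0.37) and SLAN (0.35). All of these genes except GRIN1 had been called in hypoxia, so that part of each difference is not independent of the choice.

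In 5 of the 170 sets of 4 or 5 values examined, a single fetus lay far from the rest of its group. AQP2 was 9.09 in hypoxia + ketamine replicate 1, with the other 3 fetuses between 8.90 and 8.92, and the AQP2 call ended without that array. ME1 was 9.28 in the same fetus, with the others between 9.67 and 9.75. MMP13 was 7.70 in hypoxia + ketamine replicate 4, against 6.89 to 6.95. TNF was 7.78 in hypoxia + ketamine replicate 2, against 6.92 to 7.05. MYD88 was 8.29 in hypoxia control replicate 4, against 7.22 to 7.45. This rule marks about 1 set in 20 where nothing is unusual.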

How the results depend on the processing

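The counts of 821 probes higher, 534 lower, 35 at least 2-fold lower, 0 at least 2-fold higher and 955 with an interaction depended on scaling, samples and adjustment. Scaling normexp values to the 75th percentile gave 93 higher, 112 lower, 20 at least 2-fold lower and 185 interactions, and cyclic loess 348 higher. The scanner software's processed signal gave 140 at least 2-fold lower and 23 higher with 75th percentile scaling, and 106 and 40 with quantile normalization. With only the 2 hypoxia groups in the fit, 340 were lower and 19 at least 2-fold lower. Slide A alone gave 344 higher, 314 lower, 18 at least 2-fold lower, 3 at least 2-fold higher and 318 interactions, and slide B alone 450 higher and 3 at least 2-fold higher. With 1 probe per named gene there were 36 higher, 65 lower, 4 at least 2-fold lower and 71 interactions. After Benjamini-Hochberg adjustment in limma all of these counts were 0. Moving hypoxia control replicate 1 to normoxia + ketamine gave 1 probe at least 2-fold higher and 2 adjusted calls. Leaving out single arrays gave 644 to 883 higher, 389 to 656 lower, 22 to 51 at least 2-fold lower (22 without hypoxia control replicate 4 or hypoxia + ketamine replicate 3), 0 to 2 at least 2-fold higher and 731 to 1124 interactions, with 4 adjusted calls without hypoxia control replicate 5 and 1 without hypoxia + ketamine replicate 3. The replicate block gave 935 higher, 662 lower, 49 at least 2-fold lower, 1 at least 2-fold higher and 1189 interactions, with 2 adjusted calls; the number does not pair the fetuses, whose deviations correlated at 0.27, 0.39, -0.12 and 0.04. Under normexp with 75th percentile scaling, which raised the median of all probes to 0.21, 17 of 66 called genes or probes kept their call, 40 lost it and 9 turned positive: ACSS2 (0.037), GHRH (0.29), GNRH1 (0.19), IKBKB (0.061), ITGA4 (0.16), NOS1 (0.23), NUS1 (0.013), SLC2A4 (0.19) and TNFRSF1A (0.16). GHRH and GNRH1, called at -0.14 and -0.21, and NOS1, at -0.11, were near background. With slide as a block CCN1 (-0.84), NOS1, SLC17A5, TRAIN A and the second BCL2 probe lost their call and GRIN1 gained one. Without hypoxia control replicate 1, 55 of the 66 calls were kept, and with it in normoxia + ketamine 52. Of 986 list medians under other settings, 937 moved by less than 1 SD of the list's mean signal among hypoxia control fetuses. A median could not move under the robust prior, with only the 2 hypoxia groups or without a normoxia array. That count therefore does not measure stability. The causes of these shifts were not tested. Signal near background limits the dim genes named above.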

Other observations

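NMDA receptor subunit GRIN1 was measured by 3 probes, which gave -0.33, -0.37 and -0.35, none of them called. On slide A they gave -0.09, -0.01 and -0.11 and on slide B -0.48, -0.62 and -0.51, and all 3 passed the unadjusted threshold of limma on slide B alone, the first also with slide as a block. Of 17 neuropeptide and hormone genes 2 (11.8%, against 6.44% of all named genes) were called lower, GHRH and GNRH1, and 0 higher. Neither was well above background on any hypoxia array, their second probes gave 0.00 and 0.10, and the count of genes called lower was 1 without hypoxia control replicate 1 or 4. ADCYAP1, the neuropeptide PACAP, stood at 0.85 and TAC1, the precursor of substance P, at 0.41, neither called, while NPY, neuropeptide Y, stood at -0.20. CD40, a costimulatory receptor of antigen-presenting cells, measured 7.49, 9.52, 7.69, 11.64 and 7.27 in the controls and 7.08, 8.11, 7.32 and 7.12 with ketamine, and hypoxia control replicates 2 and 4 were its highest fetuses, as for the interferon-stimulated genes. JUN, a subunit of the AP-1 transcription factor, gave -0.15 on its brightest probe, which was not called, and -0.72 on a dimmer one (exact permutation P = 0.111), which was called, so its probes disagreed. TTR, the thyroid hormone carrier made by choroid plexus, ranged from 6.78 to 11.56 in hypoxia control and from 7.93 to 12.82 in hypoxia + ketamine. The hemoglobin gene HBB ranged from 13.17 to 15.94 in hypoxia control and from 12.63 to 14.66 in hypoxia + ketamine, with 0.32 on slide A and -1.42 on slide B.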
